A study of Bos taurus with 9 samples.

Results

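Genes that restrain immune attack, 8 in all, were followed across 9 RNA-seq libraries of bovine endometrial cells (BEND). They were taken by symbol for their known roles, at a time when earlier results of these data were known, and the 8 symbols CD274, PDCD1LG2, CD276, CD47, IDO1, NT5E, ENTPD1 and TGFB1 were each found once among the 17162 genes of the expression table. The cells were wild-type primary cultures from the uteri of Holstein cows collected at an abattoir. Untreated cells (CON), cells given estradiol and progesterone (GA) and cells given the same hormones and then interferon tau (GB) were represented by 3 libraries each. GA and GB cells received estradiol (E2) at 1 nM and progesterone (P4) at 100 nM. GB cells were then exposed for 12 h to interferon tau (IFNT) at 100 ng/mL, the type I interferon by which the ruminant conceptus signals its presence to the mother. CON cells received none of the 3 agents. When CON and GA cells were collected relative to GB cells is not stated separately in the sources used here, so the effects of IFNT, of culture time and of a longer time in the hormones cannot be told apart in the comparisons with GB. The libraries of a group were called biological replicates, and per the study's methods dishes of the cells were divided among the groups in triplicate. How many cows the cells came from is not given in the sources used here, and the p-values measure only the spread between these libraries.

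Maternal immune cells meet an embryo that carries paternal antigens, and the endometrium is known to present signals that hold these cells back. CD274 (PD-L1) and PDCD1LG2 (PD-L2) are surface ligands of the PD-1 receptor, through which they quiet activated T cells, and type I and type II interferons are textbook inducers of CD274. CD276 (B7-H3) belongs to the same B7 family, and CD47 tells phagocytes through SIRP alpha not to engulf the cell. Other members act through soluble products. IDO1 depletes tryptophan and yields kynurenines, ENTPD1 (CD39) and NT5E (CD73) convert extracellular ATP step by step into adenosine, and TGFB1 is a secreted cytokine that restrains T cells.

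Values are given as FPKM, the fragments mapped to a gene per kilobase of its exons and scaled to the mapped fragments of the library, so that levels can be set side by side between genes. FPKM sums ranged from 1395622 to 1442723 per library, and 14452 to 14893 genes per library were above 0. Fold changes (log2FC) were computed on log2(FPKM + 0.5), which makes changes at low FPKM appear smaller than they are, and were tested with limma on the 12578 genes whose mean FPKM reached 0.5. A differentially expressed gene (DEG) had a log2FC above 1 or below -1 and a Benjamini-Hochberg adjusted p under 0.05. The smallest p that an exact permutation test can reach in groups of 3 and 3 is 0.1, so the p-values come from the model. Calls of members, list genes and markers were recomputed under 19 alternative settings of pseudocount, minimum, scaling, model and libraries left out in turn. A call lost or gained is given beside each such gene named, and the range of its counts on the adjusted p beside each list. Of the 55 list genes that passed the adjusted p in GB vs. CON, leaving aside members, interferon reference genes and genes that reached the minimum only through GB, 40 passed under every setting, and so did 29 of 46 in GB vs. GA. In RNA from bulk cultures, fewer cells of a type and less RNA per cell cannot be told apart.

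The cells are described as epithelial and, in the study's account, stained for cytokeratin, a protein readout not analysed here. In the RNA the epithelial markers were close to 0. Among 11 matched epithelial markers of 12 listed, 0 reached a mean of 1 FPKM, and the most abundant was the keratin KRT18 at a mean of 0.361 FPKM. CDH1, which encodes E-cadherin, lay between 0 and 0.14 FPKM, and EPCAM was not analysed here. The 10 stromal fibroblast markers all exceeded a mean of 1 FPKM, led by VIM at 8539 FPKM. Their summed FPKM was 17170 ± 320 (SD, n = 3) for CON libraries, 17190 ± 198 for GA and 15318 ± 63.3 for GB, where every library lay below the lowest library of the other groups. The markers did not all move the same way. By the adjusted p alone 1 was higher and 5 lower in GB vs. CON, 1 higher and 6 lower in GB vs. GA, and 2 higher and 1 lower in GA vs. CON, where the sums were alike. Over the settings these counts were 1 to 3 and 5 to 6, 1 and 4 to 6, and 0 to 2 and 0 to 1. VIM fell by 0.22 and 0.17 on the log2 scale against CON and GA (the latter call lost in 3 of 19 settings), while PDGFRA, a growth factor receptor gene, rose from means of 150.2 and 155.8 FPKM to 195.7 FPKM (log2FC 0.38 and 0.33, limma adjusted p = 0.000415 and 0.00113). The part of these shifts in the results below was not tested.

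Markers of immune cells were low and were spread over the groups. Of 16 immune markers 12 were matched, 5 of them above a mean of 1 FPKM, and their summed FPKM was 35.9 ± 4.14 in CON, 39.1 ± 2.40 in GA and 41.5 ± 7.41 in GB, with overlapping libraries. CD14, a coreceptor for bacterial lipopolysaccharide, was the most abundant at a mean of 20.2 FPKM and did not pass against either group except without GB1, where it was lower in GB (limma adjusted p = 0.0385 and 0.0152). CD163, a scavenger receptor of macrophages, rose from means of 2.32 and 1.89 FPKM in CON and GA to 9.23 FPKM in GB (log2FC 1.79 and 2.03, limma adjusted p = 2.88e-06 and 1.13e-06). The part of CD163 in the other results was not tested. The pan-leukocyte gene PTPRC and the T cell gene CD3E were not analysed here. Of 7 endothelial markers only CDH5 exceeded a mean of 1 FPKM, at 1.46. CDH5, which encodes the cadherin of endothelial junctions, was higher in GB than in GA (means of 1.94 and 1.01 FPKM, log2FC 0.68, limma adjusted p = 0.0395, lost in 5 of 19 settings) and did not pass against CON (1.43 FPKM, log2FC 0.34). Summed over the 7 genes, the FPKM of GB libraries (2.30 to 3.49) lay above that of GA libraries (1.72 to 1.87) and overlapped that of CON libraries (1.71 to 2.48), and its part in the other results was not tested.

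**Figure D1:**
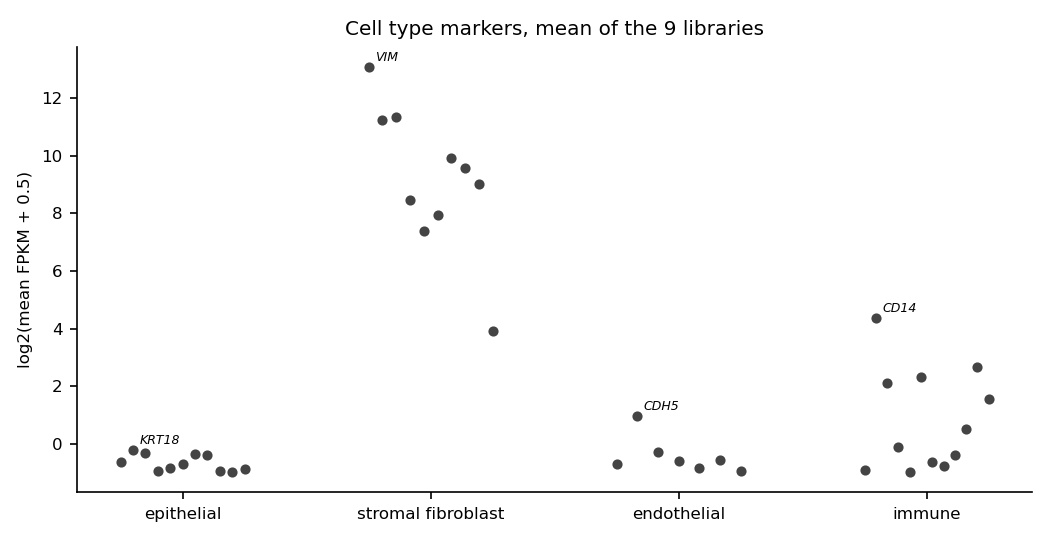
Marker genes of 4 cell types (x axis) by log2 of the mean FPKM over the 9 libraries plus 0.5 (y axis), with 1 point per gene and the most abundant gene of each list named. The 11 epithelial markers lie near the bottom of the scale, while the 10 stromal fibroblast markers lie above all of them.

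The 8 genes spanned levels from above 200 FPKM to 0. In CON, CD47 (mean 209.5 FPKM) and CD276 (180.4 FPKM) were the most abundant and their libraries overlapped, followed by TGFB1 (107.7 FPKM). NT5E (36.9 FPKM) and CD274 (36.0 FPKM) came next with overlapping libraries, then ENTPD1 (28.9 FPKM), while PDCD1LG2 and IDO1 were at or near 0. The order in GA was the same except that CD274 (37.3 FPKM) stood just above NT5E (36.2 FPKM), again with overlap, and that CD47 and CD276 no longer overlapped. In GB, CD274 moved up beside TGFB1 (means of 88.6 and 101.3 FPKM, overlapping), and NT5E and ENTPD1 stood apart by little, since the lowest NT5E library was at 40.89 FPKM and the highest ENTPD1 library at 39.80 FPKM. Among all 17162 genes, the mean level of CD274 ranked 4563rd in CON, 4586th in GA and 2394th in GB.

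**Figure D2:**
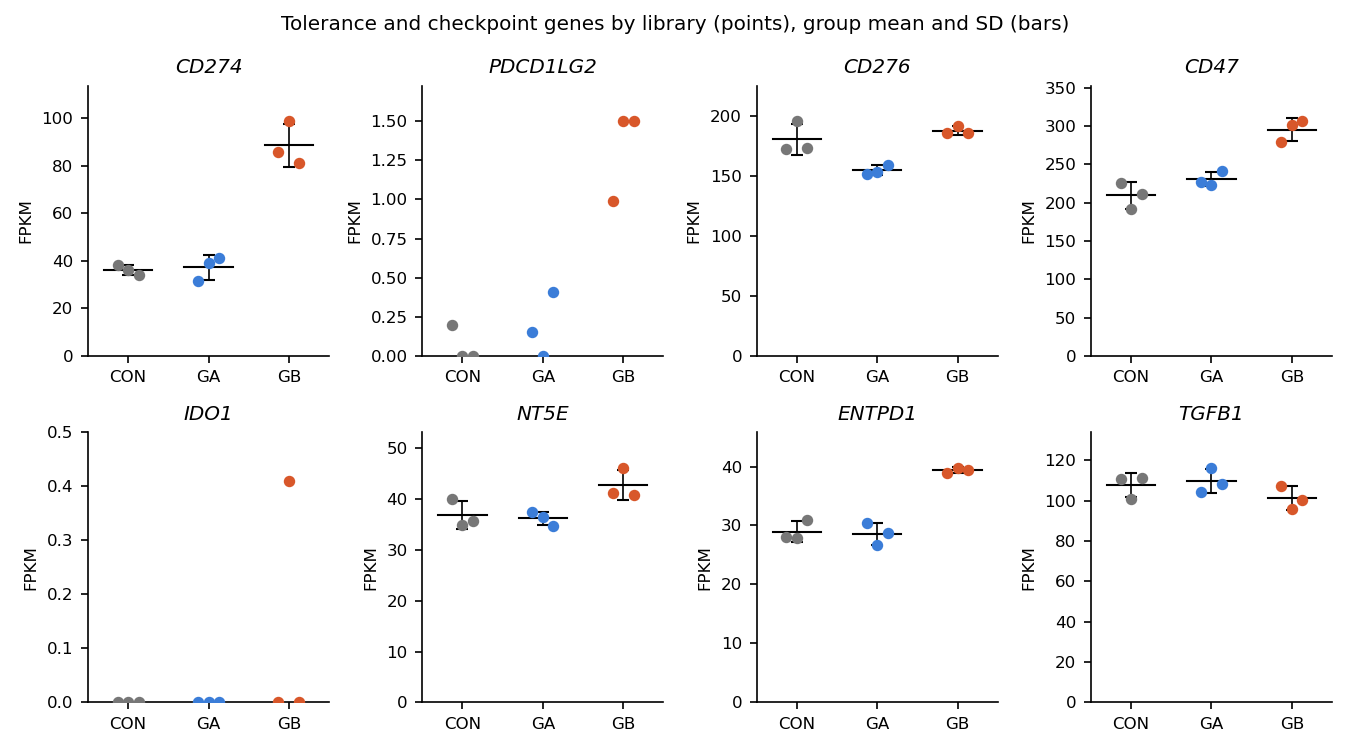
FPKM (y axes, each starting at 0) of the 8 genes in the 3 libraries each of CON, GA and GB (x axis). Points are libraries, horizontal lines are group means and bars are SD, which are left out for PDCD1LG2 and IDO1 because libraries of these genes are listed at 0. The GB libraries of CD274, CD47, NT5E and ENTPD1 lie above all CON and GA libraries, and those of TGFB1 do not.

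After IFNT, 4 genes of the set stood above both other groups at moderate to high levels. CD274 rose 2.46-fold over CON, CD47 and ENTPD1 rose by 41.0% and 36.1% over CON, and NT5E rose by 16.0%, a call lost in 13 of 19 settings. CD276 rose over GA only, TGFB1 did not pass the test in either comparison, PDCD1LG2 appeared at a low level and IDO1 was listed at 0 in 8 of 9 libraries. Counts are given over the 6 genes detected in every library, since PDCD1LG2 reached the minimum mean FPKM only through GB and so had to differ, and IDO1 did not reach it. The shares of all tested genes, here and below, still include genes that reached the minimum only through GB. In GB vs. CON, 1 of the 6 was a DEG, CD274, where 4.01% of all tested genes were DEGs and 2.94% were DEGs higher in GB. On the adjusted p alone, 4 of the 6 passed, all higher in GB, where 33.5% of all genes passed and 16.2% passed as higher. Without NT5E the count was 3 of the 6, as in 13 of the 19 settings. The GB libraries of the same 4 genes lay above every CON library, as those of 22.2% of all tested genes did. The median log2FC of the 6 was 0.33, and that of all tested genes was -0.02.

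GB vs. GA uses the same GB libraries, so the comparisons are not independent and their values are set side by side here. CD274 was again the 1 DEG of the 6, where 3.64% of all tested genes were DEGs and 2.66% were DEGs higher in GB. On the adjusted p alone, 5 of the 6 passed, all higher in GB, where 29.0% of all genes passed and 9.87% passed as higher, and 4 of the 6 passed in 5 of the 19 settings. The 5 genes also had GB libraries above every GA library, as 15.7% of all tested genes did. The median log2FC of the 6 was 0.32 and that of all tested genes was -0.08. The hormones alone moved little. In GA vs. CON, 0 of the 6 genes were DEGs and 0 passed the adjusted p with limma, where 0.0716% and 0.453% of all genes did, and 1 of the 6, CD276, had an unadjusted p under 0.05, where 19.3% of all genes had.

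**Figure D3:**
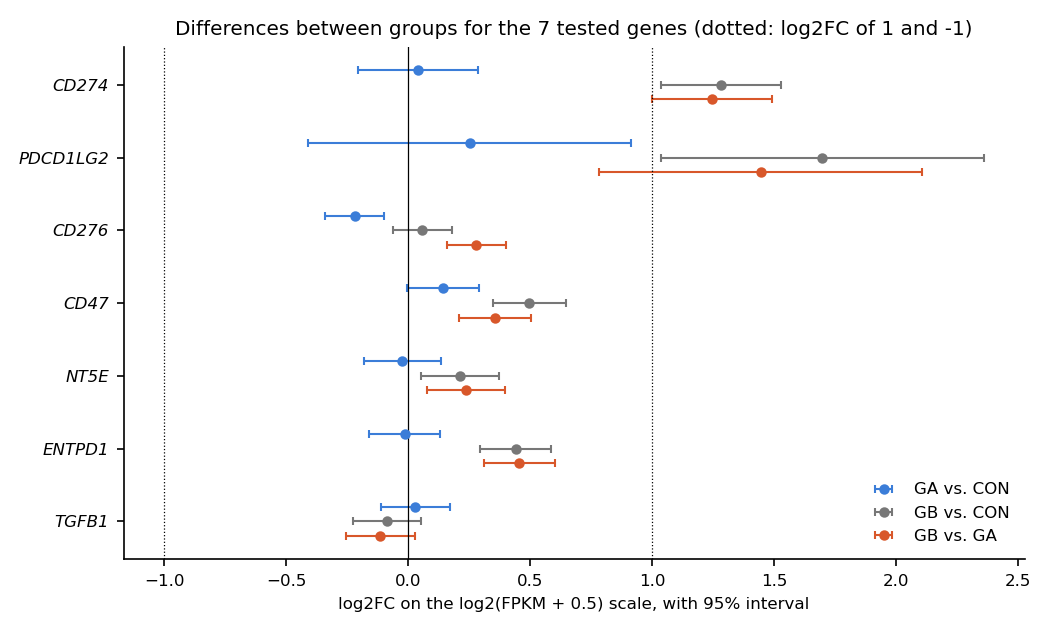
log2FC of the 7 tested genes (x axis, on the log2(FPKM + 0.5) scale) in GA vs. CON, GB vs. CON and GB vs. GA, with points for estimates and bars for 95% intervals from the limma fit of all 9 libraries. Dotted lines mark a log2FC of 1 and -1, and CD274 and PDCD1LG2 are the genes with estimates beyond them in the comparisons with GB, of which PDCD1LG2 reached the minimum of 0.5 FPKM only through GB.

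CD274, the main ligand of PD-1, was at 38.09, 36.20 and 33.84 FPKM in CON1 to CON3 and at 31.34, 39.17 and 41.27 FPKM in GA1 to GA3. In GB1 to GB3 it was at 85.98, 98.75 and 81.07 FPKM. CON and GA overlapped, and the lowest GB library lay far above the highest of the other 6. The group means and SD (n = 3) were 36.0 ± 2.13, 37.3 ± 5.23 and 88.6 ± 9.13 FPKM. The mean in GB was 2.46 times that in CON (log2FC 1.28, SE 0.11, 95% interval 1.04 to 1.53, limma adjusted p = 2.46e-05) and 2.38 times that in GA (log2FC 1.24, SE 0.11, interval 1.00 to 1.49, limma adjusted p = 3.46e-05). GA vs. CON gave a log2FC of 0.04 with an interval of -0.21 to 0.29. By size of the rise, CD274 ranked 308th of 12578 tested genes in GB vs. CON and 305th in GB vs. GA.

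PDCD1LG2, the other ligand of PD-1, was listed at 0.20, 0 and 0 FPKM in CON1 to CON3 and at 0.15, 0 and 0.41 FPKM in GA1 to GA3. In GB1 to GB3 it was at 0.99, 1.50 and 1.50 FPKM. Every GB library exceeded every other library, but all stayed at a level that rests on few fragments. The fitted log2FC was 1.70 against CON (SE 0.29) and 1.44 against GA (SE 0.29), given as a description with no test. These values depend on the pseudocount, since a pseudocount of 0.1 gave 3.29 and 2.59, and a pseudocount of 1 gave 1.12 and 0.98. The mean over the 9 libraries was 0.528 FPKM, just inside the minimum of 0.5, and the CON and GA libraries alone had a mean of 0.127 FPKM, so that the gene entered the fit only through GB. In GB the mean FPKM of CD274 was 66.6 times that of PDCD1LG2.

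In the RefSeq gene table, whose assembly differs from that of the expression values, CD274 and PDCD1LG2 are close neighbours on chromosome 8. In order of start position, a long noncoding RNA and a small nuclear RNA are listed between them. Neither RNA was analysed here, and both overlap PDCD1LG2. Per the study's methods the library kit was directional. Whether strand was used in the counting is not given in the sources used here, so reads of overlapping genes may not be separated. The same holds for ENTPD1, which overlaps a long noncoding RNA, and for TGFB1, which overlaps HNRNPUL1 and CCDC97. Among the partner genes named here, NECTIN2, VSIR, SIRPA, THBS1, AHR, AHRR, AFMID, JAK1, ADORA2B, PNP, ADA, TGFB3, TGFBR1 and SKI also overlap another annotated gene. The other protein-coding genes within 3 places of either gene did not pass the test. PLGRKT, a plasminogen receptor gene, was at 125.5 FPKM in CON and 142.3 FPKM in GB (log2FC 0.18), INSL6 at 0.84 and 1.70 FPKM (log2FC 0.64), RIC1 at 22.1 and 24.2 FPKM (log2FC 0.13) and ERMP1 at 23.5 FPKM in both (log2FC 0.00). Limma adjusted p-values of these 4 neighbours were between 0.086 and 0.999 in GB vs. CON and between 0.156 and 0.874 in GB vs. GA.

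Among the 12578 tested genes, likeness of profile was measured as the root mean square difference of log2(FPKM + 0.5) over the 9 libraries after centring each gene on its own mean. The genes nearest to CD274 were APOBEC3Z2, a cytidine deaminase of antiviral defence (0.114), ELMO2, an engulfment and motility adaptor (0.119), and PSMA2, a subunit of the proteasome core (0.121). APOBEC3Z2 went from means of 8.98 and 8.83 FPKM in CON and GA to 20.7 FPKM in GB, and PSMA2 from 342.1 and 372.5 FPKM to 874.8 FPKM. The profile of CD274 was a common shape, with 54 genes within a distance of 0.2. PDCD1LG2 was nearest to MYPN, a muscle sarcomere gene (0.152), FUT10 (0.198) and GDAP2 (0.208), and 2 genes lay within 0.2. MYPN was at means of 0.257 and 0.503 FPKM in CON and GA and 1.87 FPKM in GB. Like PDCD1LG2 it reached the minimum only through GB, so that their likeness follows in part from the minimum. The distance between CD274 and PDCD1LG2 themselves was 0.308.

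The other B7 ligands and checkpoint genes moved in both directions. Of 23 such genes listed beside the members, 16 were matched and 12 were tested. In GB vs. CON, 2 were DEGs higher in GB and 1 was a DEG lower in GB, where 1.07% of all tested genes were DEGs lower in GB. On the adjusted p alone, 4 were higher and 1 was lower (4 to 5 and 1 over the settings), and the median log2FC was 0.30. In GB vs. GA, 2 were DEGs, both higher, and 5 were higher and 1 lower on the adjusted p alone (2 to 6 and 1 over the settings). For this list and those below, the shares of all tested genes on the adjusted p alone apply. They were 16.2% higher and 17.3% lower in GB vs. CON, and 9.87% and 19.2% in GB vs. GA. As DEGs, 2.94% of all tested genes were higher and 1.07% lower in GB vs. CON, and 2.66% and 0.978% in GB vs. GA. LGALS9, which encodes galectin-9, a ligand of the checkpoint receptor TIM-3, was at 1.21, 0.83 and 0.69 FPKM in CON, 0.64, 0.22 and 0.95 FPKM in GA and 76.80, 65.13 and 73.50 FPKM in GB (log2FC 5.69 and 6.09, limma adjusted p = 1.29e-07 and 8.06e-08). The GB libraries were far above all others and close to each other. NECTIN2, a ligand of TIGIT and PVRIG, was at 33.50, 27.59 and 30.37 FPKM in CON, 30.47, 32.25 and 33.22 FPKM in GA and 95.56, 96.34 and 94.93 FPKM in GB, again with no overlap (log2FC 1.64 and 1.57, SE 0.070 for each).

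VSIR, which encodes the inhibitory B7-like protein VISTA, went the other way. It was at 10.86, 9.62 and 9.01 FPKM in CON, 5.33, 7.33 and 9.56 FPKM in GA and 3.83, 3.01 and 4.43 FPKM in GB. The GB libraries were the lowest of the 9, and GA overlapped CON. VSIR fell by 1.29 on the log2 scale against CON (limma adjusted p = 0.00106), a DEG, and by 0.87 against GA (limma adjusted p = 0.00957), which did not reach the fold threshold except without GA1 (log2FC -1.07). PDCD1, which encodes PD-1 itself, was listed at means of 63.0 FPKM in CON, 71.8 FPKM in GA and 90.3 FPKM in GB, higher in every GB library than in any other (log2FC 0.53 and 0.33, limma adjusted p = 0.00276 and 0.0304, the latter call lost in 6 of 19 settings). The lymphocyte markers CD3D, CD79A and NKG7 were listed at 0 in 8, 7 and 8 of the 9 libraries. Which cells or transcripts the PDCD1 values came from was not tested. NCR3LG1, the ligand of the natural killer cell receptor NKp30, rose from 7.07 and 8.02 to 11.8 FPKM (log2FC 0.71 and 0.53, limma adjusted p = 0.011 and 0.0452, the latter call lost in 9 of 19 settings). ICOSLG, the ligand of the costimulatory receptor ICOS, had a log2FC of 0.36 and 0.26 and did not pass the test (limma adjusted p = 0.0642 and 0.174). It passed against CON without CON2 or GB3 (limma adjusted p = 0.0485 and 0.00371) and against GA without GB3 (limma adjusted p = 0.0109).

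Genes that stabilise PD-L1 at the cell surface or relay interferon signals to the CD274 gene were listed separately, and 13 were tested. In GB vs. CON, 4 were DEGs higher in GB and 1 was a DEG lower in GB, where 2.94% and 1.07% of all tested genes were. On the adjusted p alone, 7 were higher and 2 lower (5 to 7 and 1 to 2 over the settings). In GB vs. GA, 4 were DEGs higher in GB and 1 was a DEG lower in GB, where 2.66% and 0.978% of all tested genes were. On the adjusted p alone, 5 were higher and 1 lower (4 to 6 and 1). The 4 DEGs higher in GB were the transcription factor genes STAT2, IRF1, IRF2 and IRF9, with log2FC values of 1.85, 2.24, 1.51 and 2.15 against CON and 1.87, 2.40, 1.21 and 2.19 against GA. IRF1, which binds the promoter of CD274 in other species, was at 16.59, 18.49 and 16.54 FPKM in CON, 15.78, 13.09 and 17.43 FPKM in GA and 76.68, 88.38 and 83.82 FPKM in GB. Its GB libraries all lay far above the other 6. In the gene table STAT2 overlaps IL23A, IRF1 overlaps RAD50, IRF9 overlaps RNF31 and CMTM6 overlaps CMTM7, and IRF2 and IFNAR1 overlap genes without a symbol, so that their values are less certain. CMTM6, which protects PD-L1 from degradation, was abundant throughout at means of 214.0, 252.6 and 299.7 FPKM in CON, GA and GB. It rose over CON (log2FC 0.50, limma adjusted p = 0.00473) and did not pass against GA (log2FC 0.25, limma adjusted p = 0.096), a call gained in 4 of 19 settings, which were median-of-ratios factors, quantile normalization, only the 2 groups and without CON2 (limma adjusted p 0.00376 to 0.219 over the 19).

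The lower gene of that list was IFNAR1, a subunit of the receptor that binds IFNT. It was at 32.54, 29.71 and 34.65 FPKM in CON, 35.66, 35.96 and 38.06 FPKM in GA and 12.41, 15.08 and 15.16 FPKM in GB. All GB libraries lay under the others, and IFNAR1 fell by 1.16 on the log2 scale against CON and by 1.34 against GA (SE 0.088, limma adjusted p = 1.12e-05 and 4.24e-06). The partner subunit gene IFNAR2 was higher in GB than in CON (log2FC 0.26, limma adjusted p = 0.0478, lost in 10 of 19 settings) and did not pass against GA. JAK1, the kinase bound to IFNAR2, had a log2FC of 0.00 in both comparisons, at 81.7 FPKM in GB.

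CD276, a B7 family ligand, was the 1 gene of the 8 whose GA and CON libraries did not overlap. It was at 172.39, 195.37 and 173.48 FPKM in CON, 151.51, 152.80 and 159.28 FPKM in GA and 185.44, 191.58 and 185.39 FPKM in GB. Every GA library lay below every CON and GB library, whereas CON and GB overlapped. In GA vs. CON, where 6.13% of tested genes had all GA libraries below CON, the log2FC was -0.22 (SE 0.053, interval -0.34 to -0.10) with an unadjusted p of 0.00244 and a limma adjusted p = 0.0938, so that the difference did not pass the test. Against GA, GB was 21.3% higher (log2FC 0.28, SE 0.053, interval 0.16 to 0.40, limma adjusted p = 0.00433). Against CON the log2FC was 0.06 with an interval of -0.06 to 0.18, and its sign turned with quantile normalization (-0.04).

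CD47, the signal that holds phagocytes off, was the most abundant of the 8. It was at 226.12, 191.35 and 211.03 FPKM in CON, 227.35, 223.23 and 241.64 FPKM in GA and 278.91, 300.87 and 306.17 FPKM in GB. CON and GA overlapped and every GB library lay above them. The rise was 41.0% over CON (log2FC 0.50, SE 0.066, interval 0.35 to 0.65, limma adjusted p = 0.000467) and 28.0% over GA (log2FC 0.35, SE 0.066, interval 0.21 to 0.50, limma adjusted p = 0.00365). GA vs. CON had a log2FC of 0.14 with an interval of -0.01 to 0.29.

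None of the 7 partners of CD47 was a DEG in the 3 comparisons. In GB vs. CON 2 were higher and 3 lower on the adjusted p alone (1 to 2 and 2 to 3 over the settings), where 17.3% of all tested genes were lower. In GB vs. GA 1 was higher and 2 were lower (1 to 2 and 1 to 2), where 19.2% of all tested genes were lower. THBS1, which encodes thrombospondin-1, a secreted ligand of CD47, was very abundant and rose from means of 4249 and 4361 FPKM in CON and GA to 5810 FPKM in GB (log2FC 0.46 and 0.41, limma adjusted p = 0.000547 and 0.00108). THBS2, a related matrix protein gene, fell by 0.59 and 0.53 on the log2 scale (means of 112.7, 107.7 and 74.5 FPKM). SIRPA, the receptor of CD47 on phagocytes, was at means of 32.6, 29.5 and 28.1 FPKM. It was lower in GB than in CON (log2FC -0.21, limma adjusted p = 0.036, lost in 7 of 19 settings) and did not pass against GA (log2FC -0.07).

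IDO1, the enzyme of the rate-limiting step from tryptophan to kynurenine, was listed at 0 FPKM in all CON and GA libraries and in GB1 and GB3, and at 0.41 FPKM in GB2. With a mean of 0.0456 FPKM over the 9 libraries it was not tested. Of 22 other genes of the tryptophan and kynurenine pathway 17 were matched and 16 were tested. In each comparison with GB 2 were DEGs, both higher in GB, where 2.94% (GB vs. CON) and 2.66% (GB vs. GA) of all tested genes were. On the adjusted p alone 4 were higher and 4 lower in GB vs. CON (4 to 5 and 4 to 6 over the settings), and 3 were higher and 3 lower in GB vs. GA (3 to 4 and 3), with medians of -0.03 and -0.08.

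WARS1, the tryptophanyl-tRNA synthetase, was at 231.99, 247.82 and 233.47 FPKM in CON, 227.76, 230.01 and 236.74 FPKM in GA and 1711.31, 1643.58 and 1609.45 FPKM in GB. Its GB level was 6.96 times that of CON and 7.15 times that of GA (log2FC 2.80 and 2.83, SE 0.041, limma adjusted p = 1.42e-10 and 1.12e-10). IL4I1, a secreted amino acid oxidase that also degrades tryptophan, rose from 1.14 and 0.947 FPKM to 4.88 FPKM (log2FC 1.72 and 1.89, limma adjusted p = 4.79e-05 and 2.81e-05). IL4I1 overlaps NUP62 and ATF5 in the gene table, so its value is less certain. AFMID, the formamidase that follows IDO1, was at means of 1.10, 1.23 and 1.19 FPKM in CON, GA and GB and did not pass (log2FC 0.28 and 0.07). KYNU, which acts further along the branch, was listed at no more than 0.27 FPKM in any library. AHR, the receptor that kynurenines activate, was lower in GB (means of 3.95, 4.05 and 2.56 FPKM, log2FC -0.53 and -0.57, limma adjusted p = 0.012 and 0.00952). CYP1A1, a standard target of AHR, was at means of 30.0, 28.2 and 14.8 FPKM (log2FC -0.99 and -0.91, limma adjusted p = 9.29e-05 and 0.000199), just short of the fold threshold. Against CON it was a DEG lower in GB in 6 of 19 settings (log2FC -1.06 to -0.92 over the 19), so that the list had 1 such DEG there. CYP1B1, also linked to AHR, was lower than in GA (75.7 and 58.3 FPKM, limma adjusted p = 0.00552). Against CON (64.2 FPKM) it did not pass (log2FC -0.14, limma adjusted p = 0.193), except with quantile normalization (0.0466). TIPARP (35.2, 34.8 and 34.6 FPKM) and AHRR (4.71, 4.42 and 3.18 FPKM) did not pass in either comparison.

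ENTPD1, which takes ATP and ADP to AMP at the cell surface, was at 27.98, 27.80 and 31.00 FPKM in CON, 30.42, 26.75 and 28.66 FPKM in GA and 38.84, 39.80 and 39.45 FPKM in GB. The GB libraries were the tightest of the 3 groups and all lay above the others. The rise was 36.1% over CON (log2FC 0.44, SE 0.064, interval 0.30 to 0.58, limma adjusted p = 0.000813) and 37.6% over GA (log2FC 0.46, SE 0.064, interval 0.31 to 0.60, limma adjusted p = 0.00078). GA vs. CON had a log2FC of -0.02 with an interval of -0.16 to 0.13.

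NT5E, which takes AMP to adenosine, was at 39.98, 34.96 and 35.65 FPKM in CON, 37.38, 36.41 and 34.77 FPKM in GA and 41.22, 46.17 and 40.89 FPKM in GB. CON and GA overlapped and every GB library lay above them, but CON1 and GB3 differed by less than the spread within GB. The log2FC was 0.21 against CON (SE 0.070, interval 0.05 to 0.37, limma adjusted p = 0.0444) and 0.24 against GA (SE 0.070, interval 0.08 to 0.39, limma adjusted p = 0.0325). The call against CON was lost in 13 of 19 alternative settings, among them leaving out any library other than CON1 (limma adjusted p 0.0202 to 0.147 over the 19). The call against GA was lost in 5 of 19, namely without GA1, GA2, GA3, GB1 or GB2 (limma adjusted p 0.0121 to 0.108). Without GB2 the log2FC was 0.16 against CON (limma adjusted p = 0.147) and 0.18 against GA (limma adjusted p = 0.108).

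Of 23 other genes of extracellular nucleotides and adenosine 20 were matched and 12 were tested. In GB vs. CON 1 was a DEG, higher in GB, where 2.94% of all tested genes were. On the adjusted p alone 3 were higher and 2 lower (2 to 3 and 1 to 3 over the settings). In GB vs. GA 0 were DEGs with limma, and 3 were higher and 3 lower on the adjusted p alone (3 to 4 and 1 to 4). The DEG was P2RX7, an ion channel opened by extracellular ATP, at 1.39, 1.73 and 1.64 FPKM in CON, 2.69, 1.40 and 2.48 FPKM in GA and 4.08, 4.14 and 4.59 FPKM in GB. GB stood above all others (log2FC 1.19 against CON, limma adjusted p = 0.00149, and 0.86 against GA, limma adjusted p = 0.00955, past the fold threshold only without GA1). PANX1, a channel that releases ATP, was also higher (log2FC 0.34 and 0.38, limma adjusted p = 0.00882 and 0.00552). Downstream of adenosine, the receptor gene ADORA2B was at means of 37.6, 37.6 and 30.2 FPKM (log2FC -0.32 in both comparisons, limma adjusted p = 0.0562 and 0.0602, passing as lower in 3 and 1 of 19 settings), and ADORA2A was listed between 0 and 0.73 FPKM. ADA, which deaminates adenosine to inosine, was at 22.0, 22.9 and 22.1 FPKM, and PNP, which acts on the inosine, fell by 0.33 and 0.35 on the log2 scale (443.0, 448.7 and 352.2 FPKM, limma adjusted p = 0.000507 and 0.00043).

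**Figure D4:**
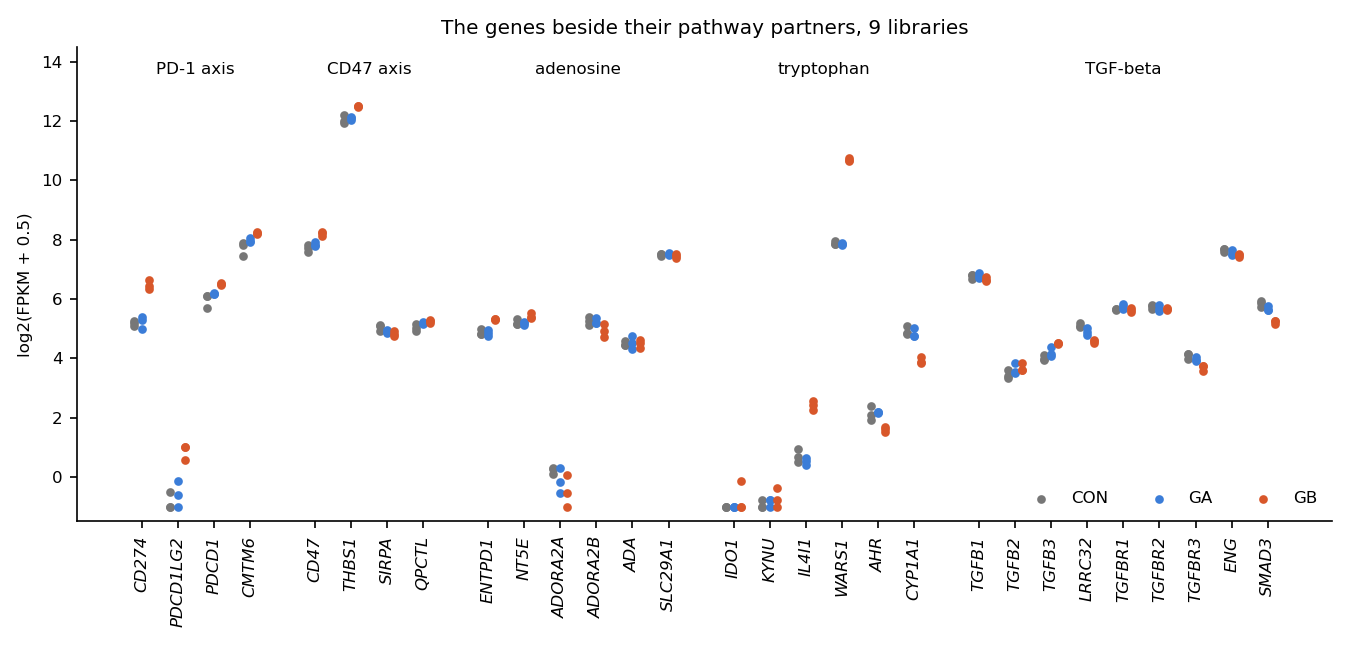
log2(FPKM + 0.5) (y axis) of 7 of the 8 genes beside their pathway partners (x axis), with 1 point per library coloured by group. Among the genes that stand apart in GB are WARS1, CD274 and IL4I1, which lie higher, and CYP1A1, which lies lower. IDO1 and KYNU lie at the bottom of the scale, TGFB1, TGFBR1 and TGFBR2 overlap across groups, and the TGFBR3 and SMAD3 libraries of GB lie below the others.

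TGFB1 was at 110.85, 100.93 and 111.30 FPKM in CON, 104.57, 116.38 and 108.53 FPKM in GA and 107.49, 96.10 and 100.40 FPKM in GB. The 3 groups overlapped. The log2FC was -0.09 against CON (interval -0.23 to 0.05, limma adjusted p = 0.315), -0.12 against GA (interval -0.26 to 0.03, limma adjusted p = 0.203) and 0.03 in GA vs. CON (interval -0.11 to 0.17). These intervals leave room for a fall in GB of up to 0.23 and 0.26 on the log2 scale.

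Of 28 other genes of the TGF-beta pathway all were matched and 27 were tested, with 0 DEGs by limma in any comparison. On the adjusted p alone 3 were higher and 13 lower in GB vs. CON, and 2 were higher and 11 lower in GB vs. GA, with medians of -0.19 and -0.14. Of all tested genes, 16.2% passed as higher and 17.3% as lower in GB vs. CON, and 9.87% and 19.2% in GB vs. GA. Over the settings 2 to 4 were higher and 11 to 14 lower in GB vs. CON, and 1 to 5 higher and 6 to 12 lower in GB vs. GA. The 6 came from median-of-ratios factors, with which 5 were higher. Among those lower were SMAD3, which carries the signal to the nucleus (57.0, 50.7 and 37.2 FPKM, log2FC -0.61 and -0.44), LRRC32, which holds latent TGF-beta at the cell surface (34.3, 29.6 and 23.1 FPKM, log2FC -0.56 and -0.34), LTBP2 (log2FC -0.44 and -0.46) and TGFBI, a matrix protein induced by TGF-beta (log2FC -0.49 and -0.39). The limma adjusted p-values of these 4 genes were between 1.96e-05 and 0.0064. CCN2, another gene induced by TGF-beta, did not pass (log2FC 0.15 and 0.18, limma adjusted p = 0.0952 and 0.0594). It passed as higher in 1 of 19 settings against CON and in 4 of 19 against GA. Higher was the ligand gene TGFB3 (15.6, 17.9 and 22.2 FPKM, log2FC 0.50 and 0.31, limma adjusted p = 0.00191 and 0.0228, the latter lost in 5 of 19 settings). The repressors of SMAD signals went both ways. SKIL was higher (log2FC 0.44 and 0.34). SKI was lower in both comparisons (82.1, 78.0 and 61.7 FPKM, limma adjusted p = 0.000209 and 0.000817). The inhibitory SMAD6 was lower than in CON (58.8 and 48.0 FPKM, limma adjusted p = 0.0123) and did not pass against GA (44.5 FPKM). The receptor genes TGFBR1 and TGFBR2, which encode the signalling chains, did not pass in either comparison (log2FC -0.02 and -0.13, and -0.08 and -0.03). The coreceptor gene TGFBR3 was lower in GB in both, from means of 16.5 and 15.3 FPKM to 12.4 FPKM with no overlap (log2FC -0.40 and -0.29, limma adjusted p = 0.00496 and 0.0257, the latter lost in 5 of 19 settings). ENG, the coreceptor endoglin, was lower than in CON (201.6 and 177.0 FPKM, log2FC -0.19, limma adjusted p = 0.0274, lost in 5 of 19 settings) and did not pass against GA (186.6 FPKM, log2FC -0.08).

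Of 20 further genes linked to tolerance 19 were matched and 15 were tested. Of these, TNFSF10 and IL15 reached the minimum only through GB and are left out of the counts. Among the other 13, 0 were DEGs by limma in any comparison, except that LIF, a cytokine gene, was a DEG lower in GB vs. CON without GB2 (log2FC -1.13, limma adjusted p = 0.0164, against -0.70 and 0.171 with all libraries). On the adjusted p alone 3 were higher and 4 lower in GB vs. CON, and 2 were higher and 4 lower in GB vs. GA. Over the settings these counts were 1 to 4 and 2 to 5, and 0 to 3 and 2 to 5. TNFSF10, which encodes the death ligand TRAIL, was listed at 0.22, 0 and 0 FPKM in CON and 0.39, 0 and 0 FPKM in GA, and was at 130.37, 147.06 and 138.34 FPKM in GB. Its values are given as a description with no test, since it had to differ to be in the fit. The galectin genes LGALS1 and LGALS3, both far more abundant than LGALS9, fell by 0.29 and 0.27 on the log2 scale against CON and by 0.22 and 0.27 against GA (limma adjusted p between 0.00289 and 0.0355, with the call of LGALS1 against GA lost in 10 of 19 settings).

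For scale, 5 matched interferon response genes of 6 listed (ISG15, MX1, MX2, RSAD2 and OAS2) were far higher in every GB library than in any other. MX2, RSAD2 and OAS2 were at 0.53 FPKM or less outside GB and reached the minimum only through it, at means of 757.1, 855.2 and 39.5 FPKM in GB. OAS2 overlaps OAS1Y, which went from 4.07 FPKM in CON to 900.5 FPKM in GB, so the OAS2 value is less certain. MX1, an antiviral GTPase, rose from means of 6.61 and 7.45 FPKM to 1572 FPKM (log2FC 7.79 and 7.64, limma adjusted p = 9.02e-11 and 1.08e-10). ISG15, a ubiquitin-like antiviral protein, went from means of 4.50 and 4.25 FPKM to 5582 FPKM. In GA vs. CON 0 of the 114 tested genes of the pathway and interferon lists, members included and cell type markers aside, passed with limma, with or without the fold limit. In 4 of the 19 settings 1 gene of the TGF-beta list passed as lower, SMAD6, an inhibitory SMAD gene that overlaps other annotated genes (limma adjusted p = 0.0545 in the fit used for all other values). By limma 19 of the 114 (16.7%) had an unadjusted p under 0.05, where 19.3% of all tested genes had.

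**Figure D5:**
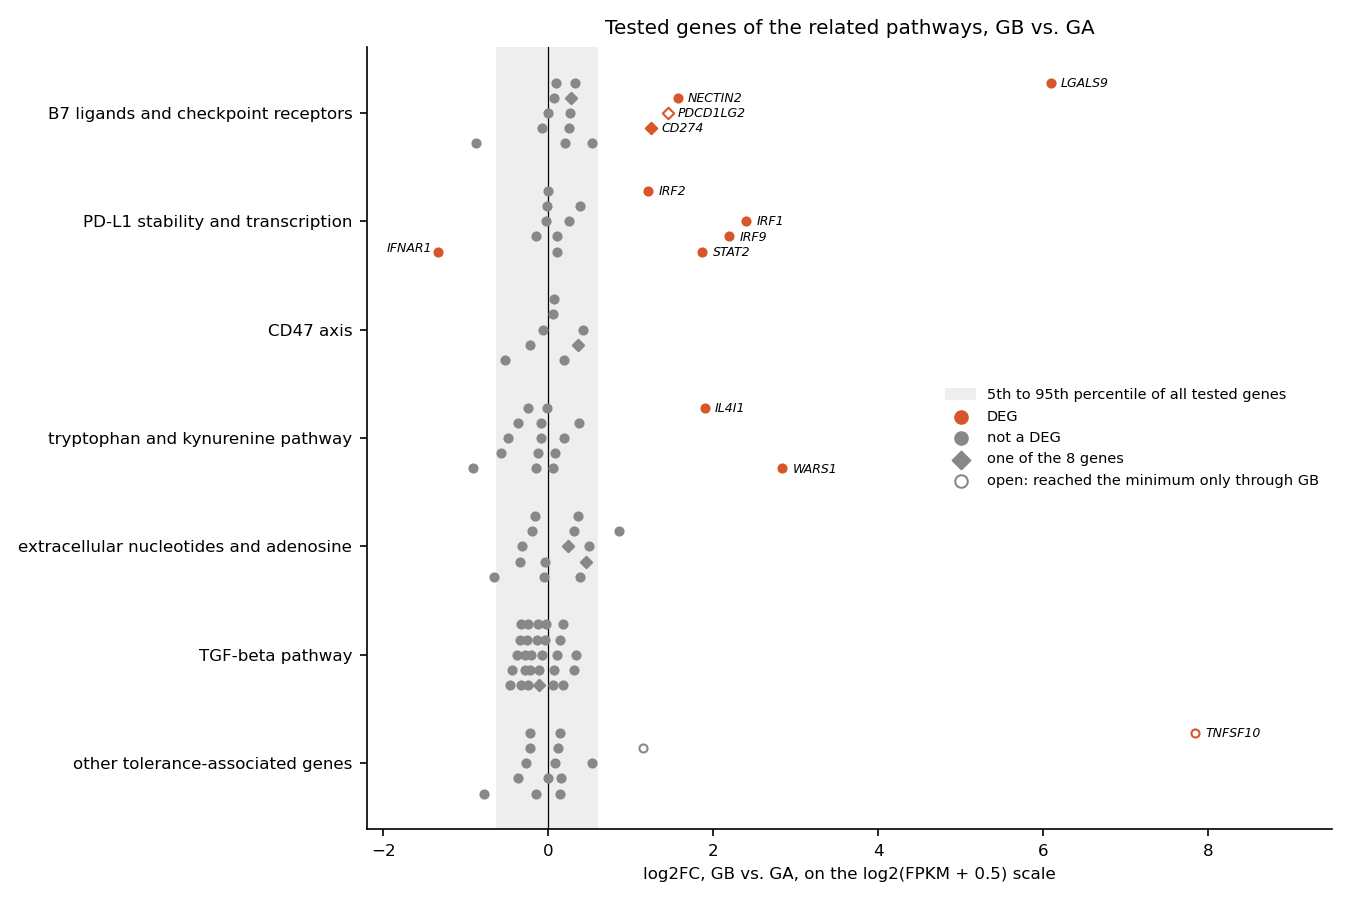
log2FC in GB vs. GA (x axis, on the log2(FPKM + 0.5) scale) of the tested genes of the 7 lists (y axis), with 1 point per gene, DEGs coloured and named, diamonds for members of the set, a band from the 5th to the 95th percentile of all tested genes, and open symbols for PDCD1LG2, TNFSF10 and IL15, which reached the minimum only through GB. Filled DEG points lie in 3 of the lists, and the CD47, adenosine and TGF-beta lists have 0.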

How the data were processed

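The authors deposited 1 FPKM value for each gene in each library. Per the submitters' processing notes and the study's methods, reads were trimmed with fastp 0.21.0, rRNA reads were removed with Bowtie2 2.33, the rest were aligned to ARS-UCD1.2 with HISAT2 2.2.1 and counted with RSEM 1.3.3, and DEGs were called with DESeq2 1.34.0 on read counts, which FPKM do not allow to be repeated. Neither the annotation release nor the use of strand in counting is given in the sources used here. Read depth is not in the table.

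Groups came from the sample titles, and 0 columns were left unmatched. In R 4.3.3 with limma 3.58.1, a mean per group was fitted to log2(FPKM + 0.5) of all 9 libraries with a variance trend, for the 12578 genes whose mean FPKM reached 0.5, and p-values were adjusted over all of them. The thresholds were those of the study's methods. Python 3.11.15 and matplotlib 3.10.9 drew the figures. The procedure was tested on simulated data.

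The members, lists and tests were chosen with earlier results of these data known. Named are all members, list genes that were DEGs, direct partners of the members, the 3 genes of nearest profile to each DEG and its 3 neighbours per side in the RefSeq gene table (ARS-UCD2.0), which also gave 2 older symbols (WARS for WARS1, CTGF for CCN2). Some genes of the lists are not reported here, and counts are over those that are. List genes named besides these were chosen after their values were seen. Alternatives were a pseudocount of 1 or 0.1, no minimum or a minimum of 1, rescaling to a common sum, median-of-ratios factors, quantile normalization, no variance trend, a fit of the 2 groups alone, a block for replicate number, and leaving out each library in turn while keeping the tested genes of the 9.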

Additional observations from a re-analysis of the deposited data

How the results depend on the processing

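CD274 was a DEG under all 19 alternatives, with a log2FC of 1.20 to 1.34 in GB vs. CON and 1.13 to 1.32 in GB vs. GA, and CD47 and ENTPD1 passed the adjusted p under all 19 in both comparisons. Over the 6 genes detected in every library, the count of DEGs stayed at 1 in each comparison with GB, where 4.01% and 3.64% of all tested genes were DEGs. The count on the adjusted p alone was 3 to 4 in GB vs. CON and 4 to 5 in GB vs. GA, through NT5E. With PDCD1LG2 the count of DEGs was 2, a count that says nothing of stability because this gene entered the fit only through GB, and it was 1 in both with a minimum mean FPKM of 1, where the gene was not tested, and 1 in GB vs. GA with a pseudocount of 1. PDCD1LG2 would not have reached the minimum without any 1 of the GB libraries (mean FPKM 0.470, 0.406 and 0.406), and when libraries were left out it was kept as a tested gene. NT5E in GB vs. CON did not pass with no minimum (limma adjusted p = 0.0574), quantile normalization (0.129), no variance trend (0.0594) or only the 2 groups (0.082). Without each library in turn its log2FC was 0.16 to 0.27 in GB vs. CON and 0.18 to 0.27 in GB vs. GA. The cause of the lost calls was not tested.

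With the replicate block, the log2FC of NT5E in GB vs. CON stayed at 0.21 with a limma adjusted p = 0.0566, and the block changed no other call of a member. Correlations of the deviations of same-numbered libraries were between -0.031 and 0.077, and these libraries share only a number. All-gene counts in GA vs. CON were small and moved most. DEGs numbered 9 and went to 2 with a minimum of 1, 5 with the block and 3 to 14 without a library. Genes with an adjusted p under 0.05 numbered 57 and went to 34 without a minimum, 100 with median-of-ratios factors, 13 without the trend, 21 with only the 2 groups and 7 to 79 without a library. No further alternatives were added after the data were seen. Outlying libraries were not tested for in groups of 3, and genes near 0.5 FPKM rest on few fragments.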
